A study of Pleurotus tuoliensis with 2 samples.

Results

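Cytochrome P450 monooxygenases are heme proteins that use molecular oxygen and electrons from a partner reductase to place an oxygen atom on fatty acids, sterols, aromatic compounds and products of secondary metabolism. Wood-decay mushrooms carry large families of them, and the substrates of most members are unknown. Here they were followed in the mycelia of *Pleurotus tuoliensis* strain ACCC 50869, a cultivated oyster mushroom relative. A unigene, the longest assembled transcript of a gene-like cluster, was counted as P450 when its best Swiss-Prot protein name contained "cytochrome P450" but not "reductase" and its mean FPKM (fragments scaled by transcript length and library size) over the 6 libraries was above 1. This rule gave 122 P450 unigenes among 16496 unigenes tested. The table held 123 such names, and the 1 left out, DN1212_c0_g1, averaged 0.452 FPKM, while the lowest one kept, DN39_c0_g1, averaged 1.63 FPKM.

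Mature mycelia (3 bottles) were taken at day 35 of a phase at 17 °C in the dark, after the mycelia had grown through 820 g of cultivation substrate at 25 °C for 37 days. Immature mycelia (3 bottles) were taken at day 0 of the 17 °C phase, after the same growth. All bottles carried the same strain, and every library was made from its own bottle, so SDs describe separate cultures. Time at 17 °C, age of the culture and maturity changed together and cannot be told apart. In RNA of whole mycelia, fewer cells that express a gene and less RNA per cell cannot be told apart either. Mature bottle 1 stood apart: over all unigenes tested, its median absolute log2 difference was 0.28 from each of mature bottles 2 and 3, which differed from each other by 0.15. The immature bottles differed by 0.22 to 0.32, with bottles 1 and 2 farthest apart.

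The P450 repertoire was broad, and its annotation rested on distant relatives. The 122 unigenes matched 34 different P450 names, of which 25 were matched by 1 unigene each. The 5 most frequent names took 85 unigenes, and all of them come from pathways of secondary metabolism in other fungi. PsiH, the tryptamine monooxygenase of psilocybin synthesis in *Psilocybe cubensis*, was the best match of 42 unigenes. FUM15, a P450 of the fumonisin cluster of *Gibberella moniliformis*, was that of 18. PatI, an enzyme of patulin synthesis in *Aspergillus clavatus*, and af510, the fumagillin P450 of *Neosartorya fumigata*, matched 9 each. YanC, from the yanuthone pathway of *Aspergillus niger*, matched 7. These names tell which known P450 is closest in sequence and do not give the substrate of the *P. tuoliensis* enzyme.

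The other annotations pointed to P450 proteins for most members. A heme binding term was given to 93 of the 122 unigenes (76.2%), against 1.2% of all unigenes tested, and a monooxygenase activity term to 87. The eggNOG class for secondary metabolites held 119 of them (97.5%, against 3.32% of all unigenes tested), and 30 carried a term for a protein that spans the membrane. In the Nr database, 112 P450 unigenes (91.8%) had their best match in *Pleurotus ostreatus*, close to the 90.2% of all tested unigenes with an Nr match, and the Nr match of 117 of the 122 unigenes was named hypothetical. The 122 unigenes matched 97 different Nr proteins. Lengths ran from 215 to 6913 bases with a median of 1741 bases. Of the members, 12 were under 500 bases and may be pieces of a P450 transcript, while 20 exceeded 3000 bases. The longest, DN8849_c0_g1, which is named here after its values were seen, has psiH as its Swiss-Prot match but a glycoside hydrolase as its Nr match, so its FPKM need not stand for a P450 transcript alone.

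P450 transcripts spanned a wide range of levels. The mean FPKM of a member was above 100 in 23 unigenes, between 10 and 100 in 71 and at most 10 in 28, with a median of 29.4 FPKM against 28.1 FPKM over all unigenes tested. The summed FPKM of the 122 members was 8199, 10037 and 10399 in mature bottles 1, 2 and 3, against 10959, 6723 and 7928 in immature bottles 1, 2 and 3. This was 0.774% ± 0.093 of the summed FPKM of a library in mature mycelia and 0.702% ± 0.179 in immature mycelia (SD, n = 3 each). The groups overlapped, and immature bottle 1 held the highest sum of all. The 10 highest members of a bottle made up 42.5% to 52.2% of its P450 sum.

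The most abundant P450 unigene was DN7585_c0_g2, with a psiH match, which ranked at 116 among all unigenes tested. It had 757, 1598 and 1623 FPKM in mature bottles 1 to 3, against 1332, 445 and 910 FPKM in immature bottles 1 to 3. Its bottles varied about as much within a group as between the groups, with a log2 ratio (mature minus immature, on log2(FPKM + 1)) of 0.62 ± 0.49 (SE) and a limma adjusted p of 0.584. The log2 ratio was 0.98 without mature bottle 1 or without immature bottle 1, and 0.19 without immature bottle 2. DN9233_c0_g2, whose match CYP52A13 belongs to a yeast family that hydroxylates alkanes and fatty acids, varied little between bottles. It had 798, 657 and 734 FPKM in mature mycelia, against 701, 611 and 583 FPKM in immature mycelia, with a log2 ratio of 0.21 ± 0.14. DN8531_c0_g1, closest to CYP3A19 of a mammalian family known for drug oxidation, had 320, 242 and 271 FPKM in mature mycelia, against 313, 328 and 310 FPKM in immature mycelia. DN6736_c0_g1, with a match to the plant phenylpropanoid hydroxylase CYP98A2, had 179, 207 and 243 FPKM in mature mycelia, against 213, 263 and 225 FPKM in immature mycelia. In these last 3 unigenes the bottles of a group lay close together, and the groups overlapped.

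**Figure D1:**
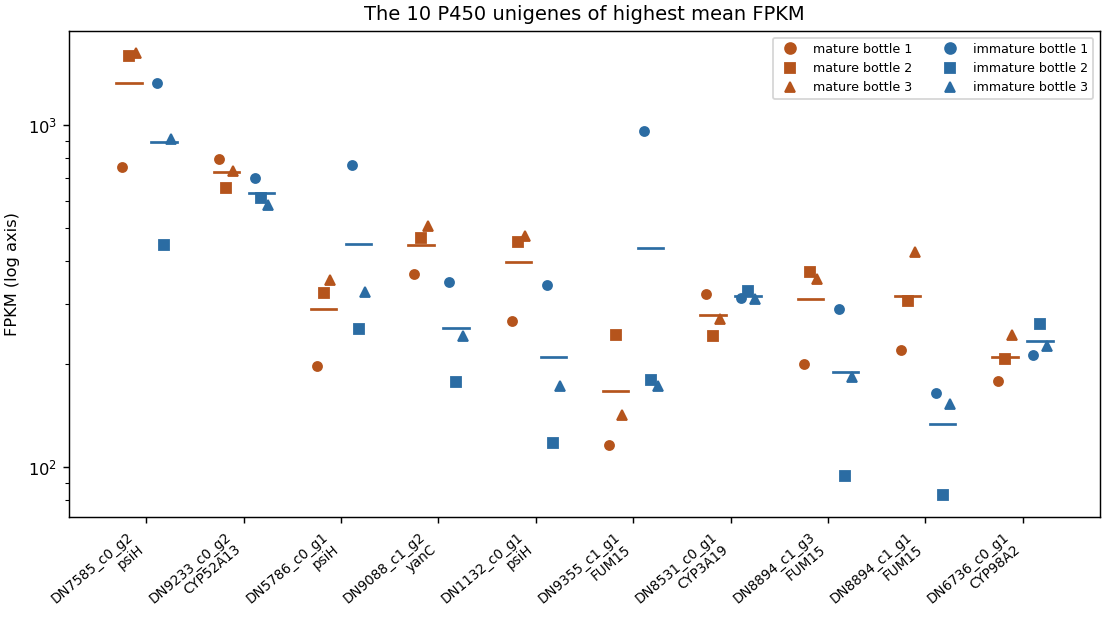
FPKM (log axis) of the 10 P450 unigenes of highest mean FPKM in each bottle, mature on the left and immature on the right of each unigene, with the group mean as a bar and the matched P450 under the name. DN7585_c0_g2 had 1623 FPKM in mature bottle 3 and 445 FPKM in immature bottle 2, and immature bottle 1 (blue circles) lay far above the other immature bottles in several unigenes, most of all in DN9355_c1_g1.

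Other abundant members depended on immature bottle 1. DN9355_c1_g1, with a FUM15 match, had 116, 243 and 142 FPKM in mature mycelia, against 959, 180 and 173 FPKM in immature mycelia. DN5786_c0_g1, with a psiH match, had 197, 322 and 353 FPKM in mature mycelia, against 767, 254 and 325 FPKM in immature mycelia. In both, immature bottle 1 alone stood above every mature bottle, and immature bottles 2 and 3 lay within the mature range. Their log2 ratios of -0.96 ± 0.71 and -0.50 ± 0.45 had adjusted p values of 0.556 and 0.62 (limma), and without immature bottle 1 they were -0.15 and -0.03. DN7228_c0_g1, an af510 match that shares its Nr protein with DN5786_c0_g1, had 90.2, 186 and 196 FPKM in mature mycelia, against 348, 117 and 146 FPKM in immature mycelia, the same order of bottles as DN5786_c0_g1. Its log2 ratio of -0.28 ± 0.49 turned to 0.18 without immature bottle 1 and to 0.07 without mature bottle 1.

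A bottle order common to many P450 unigenes was seen after their values were inspected and is given as a description. In 30 of the 122 members (24.6%), mature bottle 1 was the lowest mature bottle and the immature bottles stood in the order 1, 3, 2 from high to low, an order held by 11.6% of all unigenes tested. It was found in 12 of the 23 members above 100 FPKM (52.2%), against 20.4% of all tested unigenes at that level. Immature bottle 1 was the highest immature bottle in 61.2% of members without ties and in 43.9% of all such unigenes, and immature bottle 2 was the lowest in 52.1% and 42.7%. Of 110 members with a mean of at least 5 FPKM, 19 (17.3%) spanned more than 2.5-fold between immature bottles, against 12.1% of all unigenes at that level, and 6 (5.45%) did so between mature bottles, against 11.2%, where a group with a bottle at 0 and another above it counted as past this limit. The part of these differences between bottles in the comparison of the groups was not tested.

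Of the 122 P450 unigenes, 6 were upregulated and 2 downregulated in mature mycelia at the thresholds of the study, which asks for a log2 ratio of at least 1 in size and an unadjusted p no higher than 0.05. Over all unigenes tested, 1.18% were higher and 1.82% were lower at these thresholds (3.01% in either direction, against 6.56% of the P450 unigenes). The 6 higher unigenes matched 4 Nr proteins, and the 2 lower ones matched 1. With quantile normalization the counts were 7 higher and 1 lower, as they were without mature bottle 1, and without immature bottle 1 they were 10 higher and 1 lower. Over all unigenes tested, 1.5% were higher and 1.38% lower with quantile normalization, 1.55% and 2.61% without mature bottle 1, and 1.55% and 2.05% without immature bottle 1. At a Benjamini-Hochberg adjusted p under 0.05 over all unigenes, limma called 0 of the P450 unigenes and 0.0667% of all unigenes, and the lowest adjusted p of a member was 0.0913. At an unadjusted p of at most 0.05, 30 members (24.6%, against 15.4% of all unigenes) passed, of which 21 were higher and 9 lower, which is 17.2% and 7.38% of the members, against 6.09% and 9.33% of all unigenes. An exact permutation test (two-sided) on the bottles of 1 unigene could reach a p of 0.1 at best.

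**Figure D2:**
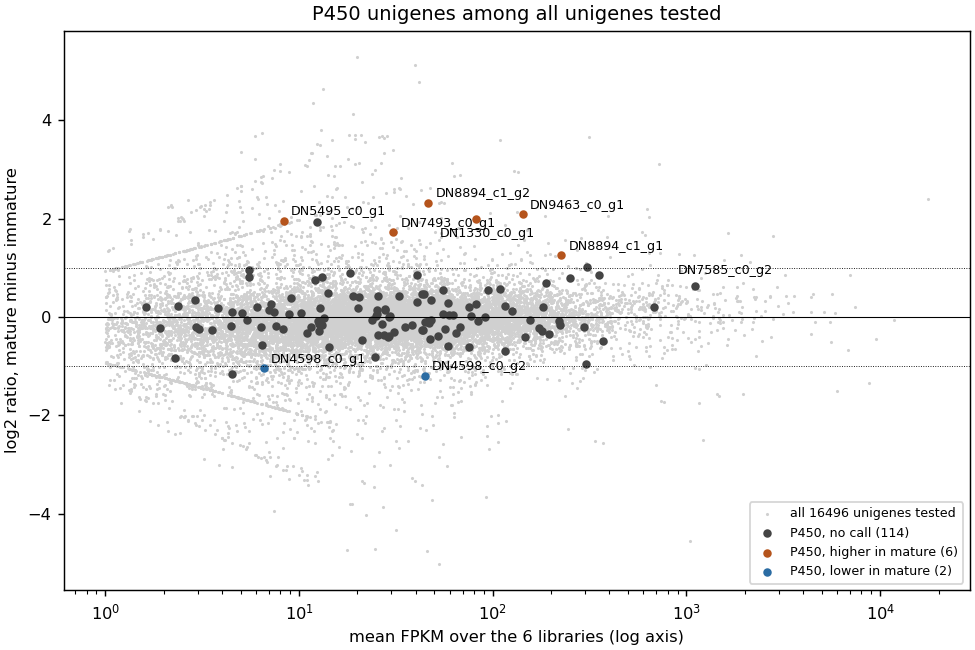
Log2 ratio (mature minus immature) against the mean FPKM of the 6 libraries (log axis) for all 16496 unigenes tested (grey) and the 122 P450 unigenes, with dotted lines at a log2 ratio of 1 and -1. The 6 higher members lay between 1.26 and 2.32, the 2 lower ones at -1.04 and -1.20, and 90 of the 122 lay within 0.5 of 0.

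Of the 6 higher members, 3 were psiH matches. DN9463_c0_g1 had 134, 263 and 298 FPKM in mature mycelia, against 70.8, 33.1 and 55.2 FPKM in immature mycelia. DN1330_c0_g1, which matched the same Nr protein (PLEOSDRAFT_1109045), had 78.9, 156 and 162 FPKM in mature mycelia, against 35.7, 32.2 and 25.6 FPKM in immature mycelia. In both, every mature bottle lay above every immature bottle, and mature bottle 1 was the lowest of the mature. The log2 ratios were 2.09 ± 0.39 and 2.0 ± 0.30, with adjusted p values of 0.135 and 0.101 (limma). With lengths of 341 and 573 bases they may be parts of 1 transcript or 2 similar genes, which the table cannot tell apart.

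DN7493_c0_g1, a psiH match of 1917 bases with another Nr protein, had the lowest p of all P450 unigenes. It had 33.2, 48.5 and 62.3 FPKM in mature mycelia, against 14.7, 11.8 and 13.9 FPKM in immature mycelia. The immature bottles lay within a narrow range, and the lowest mature bottle was above all of them. Its mean was 48.0 ± 14.6 FPKM in mature mycelia and 13.5 ± 1.47 FPKM in immature mycelia (SD, n = 3 each). The log2 ratio was 1.72 ± 0.24 with an adjusted p of 0.0913 (limma).

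The FUM15 matches DN8894_c1_g1 and DN8894_c1_g2 came from 1 assembly component and shared an Nr protein (PLEOSDRAFT_1093952). DN8894_c1_g2 had 32.0, 102.7 and 102.7 FPKM in mature mycelia, against 19.7, 7.79 and 14.6 FPKM in immature mycelia. DN8894_c1_g1 was more abundant and had 221, 305 and 427 FPKM in mature mycelia, against 164, 82.8 and 153 FPKM in immature mycelia. The groups did not overlap in either, and mature bottle 1 lay nearest to the immature bottles. The log2 ratios were 2.32 ± 0.54 and 1.26 ± 0.35 (adjusted p of 0.179 and 0.204, limma), and the log2 ratio of DN8894_c1_g1 fell short of the threshold, at 0.95, without immature bottle 2. A further member of the component, DN8894_c1_g3, matched another Nr protein and had 200.2, 372 and 356 FPKM in mature mycelia, against 290, 93.9 and 184 FPKM in immature mycelia. Its groups overlapped, and its log2 ratio of 0.80 ± 0.45 had an adjusted p of 0.442 (limma). That log2 ratio was 0.37 without immature bottle 2, and it was 1.18 without immature bottle 1, which passes the study's thresholds.

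DN5495_c0_g1, with an af510 match, was the only higher member whose mature bottle 1 was the highest of the mature. It had 20.5, 8.75 and 12.6 FPKM in mature mycelia, against 3.49, 1.80 and 2.90 FPKM in immature mycelia, a ratio of group means of 5.12. The log2 ratio was 1.96 ± 0.36 with an adjusted p of 0.132 (limma). The study reports that RT-qPCR of DN5495_c0_g1 gave a pattern similar to its RNA-seq. From its own count model, the study names 7 P450 unigenes as significantly upregulated in mature mycelia. They are the 6 higher members found here and DN1132_c0_g1, a psiH match of 369 bases. DN1132_c0_g1 had 268, 456 and 474 FPKM in mature mycelia, against 341, 118 and 172 FPKM in immature mycelia. Immature bottle 1 lay above mature bottle 1. With a log2 ratio of 1.02 ± 0.43 and an unadjusted p of 0.0549 (limma), this unigene narrowly missed the study's thresholds in the fit used here. It passed them without mature bottle 1 (log2 ratio of 1.28) and without immature bottle 1 (log2 ratio of 1.44).

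Without mature bottle 1, the log2 ratios of the 6 higher members were 2.87 (DN8894_c1_g2), 2.45 (DN9463_c0_g1), 2.33 (DN1330_c0_g1), 1.96 (DN7493_c0_g1), 1.65 (DN5495_c0_g1) and 1.49 (DN8894_c1_g1), all still past the study's thresholds. When only unigenes of at least 500 bases were fitted, DN7493_c0_g1, DN1330_c0_g1 and DN5495_c0_g1 had adjusted p values of 0.0304, 0.0368 and 0.0498 (limma). In this fit 101 of 11839 unigenes passed an adjusted p of 0.05. DN8894_c1_g2 and DN8894_c1_g1 did not pass, at 0.0866 and 0.114 (limma), and DN9463_c0_g1, with 341 bases, was left out by the limit. DN5495_c0_g1 averaged only 8.35 FPKM.

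The 2 lower members also came from 1 component, DN4598, and matched the same Nr protein (PLEOSDRAFT_1111004) under different Swiss-Prot names. DN4598_c0_g2, with a yanC match, had 42.4, 19.6 and 21.4 FPKM in mature mycelia, against 61.6, 68.0 and 54.8 FPKM in immature mycelia. Every mature bottle was below every immature bottle, and mature bottle 1 was the closest to the immature ones. The log2 ratio was -1.20 ± 0.30 with an adjusted p of 0.19 (limma). It was -1.53 without mature bottle 1, and it missed the threshold by a small margin, at -0.997, without mature bottle 2. DN4598_c0_g1, 383 bases long and closest to the rice P450 CYP78A11, had 2.28, 7.21 and 2.94 FPKM in mature mycelia, against 7.81, 12.5 and 6.78 FPKM in immature mycelia. Its groups overlapped, the smallest values above 0 among unigenes of about its length were 0.50 to 0.63 FPKM, so its levels rest on few fragments, and its log2 ratio of -1.04 ± 0.42 lost the call without any of 5 of the 6 bottles, mature bottle 1 included (-0.78).

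**Figure D3:**
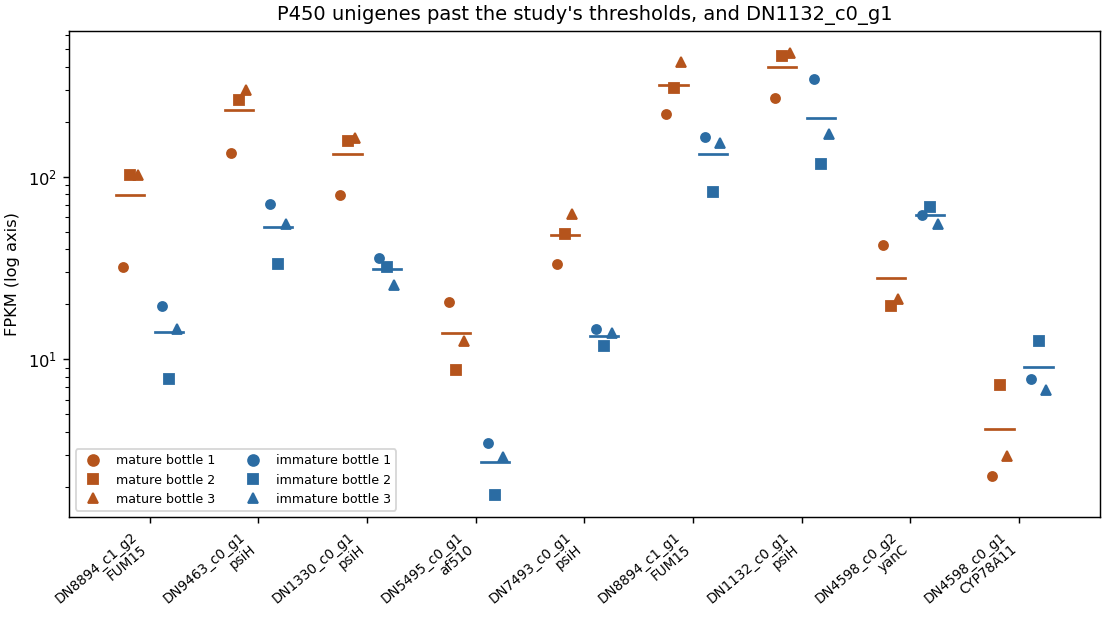
FPKM (log axis) in each bottle for the 6 higher and the 2 lower members past the study's thresholds, and for DN1132_c0_g1, with mature bottles on the left, immature bottles on the right and group means as bars. Mature bottle 1 (circles) was the lowest mature bottle in 5 of the 6 higher members, and the groups overlapped only in DN1132_c0_g1 and DN4598_c0_g1.

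Smaller differences were more frequent than calls at the study's thresholds. Every mature bottle lay above every immature bottle in 22 members (18% of the members, against 8.69% of all unigenes tested), and every mature bottle lay below in 16 members (13.1%, against 14.2%), a share near that of all unigenes. In either direction it was 31.1% of the members, against 22.9% of all unigenes. With quantile normalization, 29 members lay above (23.8%, against 11.5% of all unigenes) and 10 below (8.2%, against 10.6%). Without mature bottle 1, 32 lay above (26.2%, against 14.9% of all unigenes) and 26 below (21.3%, against 25.8%). Without immature bottle 1, 38 lay above (31.1%, against 15.3% of all unigenes) and 20 below (16.4%, against 21.2%). The median log2 ratio of the 122 members was 0.02, against -0.07 over all unigenes tested, and 73.8% of members lay within 0.5 of 0, against 75.8% of all unigenes.

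Among members that were higher without overlap but below a log2 ratio of 1, DN9088_c1_g2 was the most abundant. This yanC match had 368, 468 and 507 FPKM in mature mycelia, against 349, 177 and 241 FPKM in immature mycelia, with a log2 ratio of 0.85 ± 0.27 and an unadjusted p of 0.0195, and without immature bottle 1 the log2 ratio was 1.10, which passes the study's thresholds. DN9126_c2_g1, closest to the patulin enzyme patH, was less abundant but more uniform. It had 52.3, 57.1 and 48.2 FPKM in mature mycelia, against 34.2, 27.3 and 24.7 FPKM in immature mycelia, with a log2 ratio of 0.86 ± 0.15 and an adjusted p of 0.12 (limma). The psiH matches DN7192_c0_g1 and DN4184_c0_g2 stayed at low levels, with group means of 7.30 and 7.43 FPKM in mature mycelia and 3.71 and 3.55 FPKM in immature mycelia.

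Members that were lower without overlap had smaller differences. DN4748_c0_g1, an af510 match, had 52.4, 61.6 and 63.4 FPKM in mature mycelia, against 112, 84.6 and 79.3 FPKM in immature mycelia, with a log2 ratio of -0.62 ± 0.16 (adjusted p of 0.194, limma). DN5131_c0_g1 (CYP3A24 match) and DN5131_c0_g2 (FUM15 match), which share an Nr protein, had log2 ratios of -0.59 ± 0.19 and -0.44 ± 0.11. DN8970_c1_g1 (FUM15 match) and DN8970_c1_g5 (CYP52A1 match), which share an Nr protein of the mushroom *Hypsizygus marmoreus*, had log2 ratios of -0.38 ± 0.12 and -0.31 ± 0.13. None of these came near a log2 ratio of -1. DN8982_c0_g2 matched erg5 of *Schizosaccharomyces pombe*, the sterol desaturase that acts late in ergosterol synthesis. It had 18.2, 31.0 and 25.2 FPKM in mature mycelia, against 31.9, 33.1 and 32.9 FPKM in immature mycelia, and its log2 ratio of -0.41 ± 0.20 had an unadjusted p of 0.0791. The remaining members that were lower without overlap and named by the rule were DN4656_c0_g1 (-0.39 ± 0.15), DN4991_c0_g1 (CYP52E1 match, -0.37 ± 0.13) and DN9086_c1_g1 (psiH match, -0.46 ± 0.26), all as log2 ratios.

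Unigenes under 1 matched name differed in direction. The 42 psiH matches had a median log2 ratio of 0.07 and ran from -1.17 to 2.09, with 3 higher and 0 lower at the study's thresholds. The 18 FUM15 matches had a median of -0.03, ran from -0.96 to 2.32 and held 2 higher members and 0 lower ones. The af510 matches (median -0.19) held 1 higher member, the yanC matches (median 0.21) held 1 lower member, and the patI matches (median -0.06) held none, with log2 ratios between -0.60 and 0.49. Calls in either direction were 7.14% of the psiH, 11.1% of the FUM15, 11.1% of the af510 and 14.3% of the yanC matches, against 3.01% of all unigenes tested. All 4 matches to atE, of the terreic acid cluster of *Aspergillus terreus*, had positive log2 ratios, from 0.14 to 0.74. The lowest of them, DN8497_c0_g3 (0.14 ± 0.52), had group means of 6.98 FPKM in mature and 7.03 FPKM in immature mycelia, so its direction is not settled. All 3 matches to the yeast fatty acid hydroxylase CYP52E1 had negative log2 ratios, from -0.69 to -0.24. The groups overlapped in DN2640_c0_g2, the one at -0.69 ± 0.46. Levels within a name varied widely: psiH matches averaged between 2.37 FPKM (DN8395_c0_g1) and 1111 FPKM (DN7585_c0_g2), and FUM15 matches between 1.63 FPKM (DN39_c0_g1) and 302 FPKM (DN9355_c1_g1). The lowest yanC, af510 and patI matches were DN6756_c0_g1, DN5343_c0_g4 and DN2930_c0_g1, at mean levels of 7.43, 2.29 and 1.92 FPKM, and the highest af510 and patI matches were DN7228_c0_g1 and DN6736_c0_g2, at 181 and 220.3 FPKM.

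**Figure D4:**
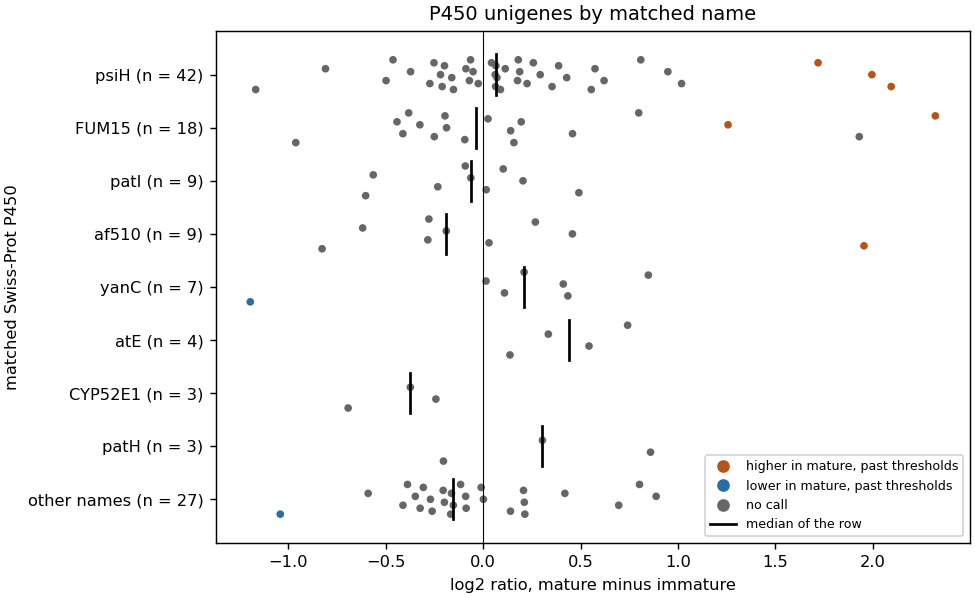
Log2 ratio (mature minus immature) of every P450 unigene, grouped by matched Swiss-Prot P450 for names with at least 3 unigenes and pooled for the others; black bars mark the median of a row. Every row of 5 or more unigenes spread to both sides of 0, and the higher members fell under psiH, FUM15 and af510.

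Grouping by Nr protein brought together unigenes that moved alike and some that did not. Of the 97 Nr proteins, 21 were matched by 2 or 3 P450 unigenes, 46 unigenes in all, and 13 of the 21 had members under more than 1 Swiss-Prot name. The log2 ratios had the same sign in 13 of the 21 and lay within 0.5 of each other in 11. The 3 shared Nr proteins with a member past the study's thresholds had both of their members past them, in the same direction. DN9088_c1_g2 and DN1132_c0_g1 matched 1 Nr protein and had log2 ratios of 0.85 and 1.02, whereas the long DN7328_c0_g1, matched to the same protein, averaged 12.8 FPKM and had a log2 ratio of 0.18 ± 0.29. DN6736_c0_g1 and DN6736_c0_g2 had nearly the same mean level, 222 and 220.3 FPKM, and log2 ratios of -0.16 and -0.09. Other groups were split: DN9126_c2_g1 and DN8868_c1_g1 had log2 ratios of 0.86 and 0.49, against -0.60 ± 0.33 for DN9126_c3_g4 with the same Nr protein. DN2517_c0_g1 and DN4184_c0_g2 had -0.37 ± 0.21 and 0.95 ± 0.42. DN7822_c0_g1, 215 bases long, was listed at 0, 33.0 and 25.9 FPKM in mature mycelia, against 15.5, 0 and 0 FPKM in immature mycelia, and the smallest values above 0 at its length were 6.64 to 11.5 FPKM, so its split from DN9355_c1_g1 rests on a few fragments. Whether unigenes of 1 Nr protein are parts of 1 transcript, alleles or separate genes cannot be told apart from the table.

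**Figure D5:**
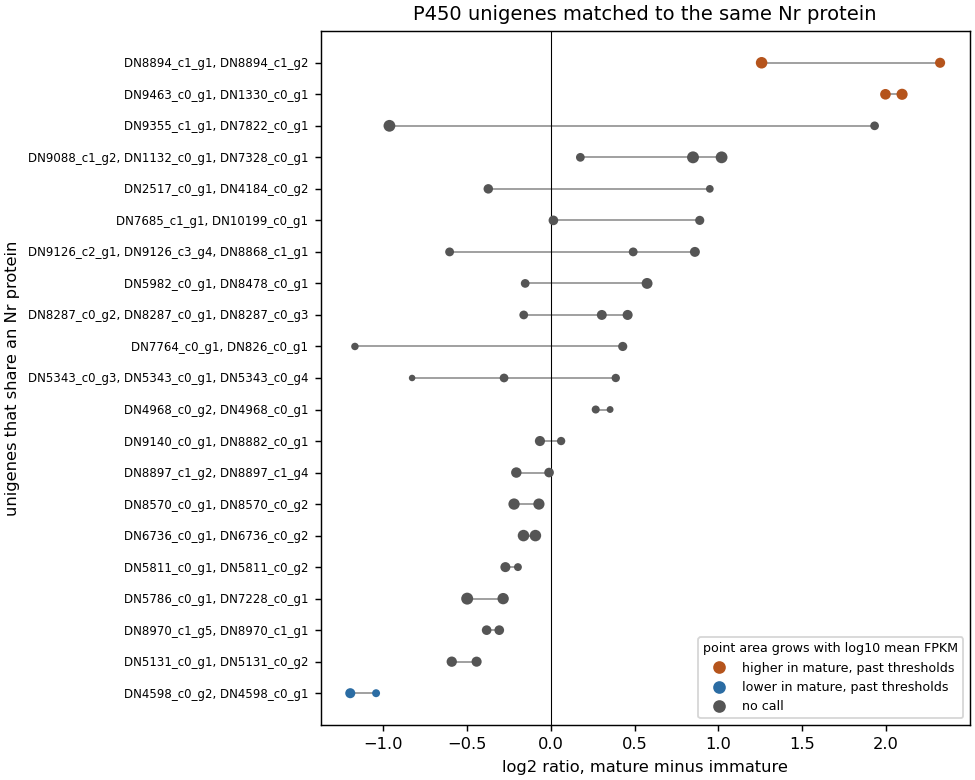
Log2 ratio (mature minus immature) of the 46 P450 unigenes that share 1 of 21 Nr proteins, with 1 row per protein and a line joining its members; points grow with mean FPKM. The pairs past the study's thresholds lay on 1 side of 0, at 2.09 and 2.0, at 2.32 and 1.26, and at -1.04 and -1.20, and the widest split, between DN9355_c1_g1 and DN7822_c0_g1, involved the unigene of 215 bases.

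The electron donors of P450 enzymes and related proteins made a list of 9 unigenes, with 3 positive and 6 negative log2 ratios. NADPH-cytochrome P450 reductase (DN6356_c0_g1), which feeds electrons to P450 enzymes of the endoplasmic reticulum, had 141, 129 and 119 FPKM in mature mycelia, against 135, 193 and 172 FPKM in immature mycelia, with a log2 ratio of -0.35 ± 0.16 and an unadjusted p of 0.066. Cytochrome b5 (DN5541_c0_g1), a second electron donor, had a log2 ratio of -0.24 ± 0.19, and the mitochondrial adrenodoxin homolog (DN7803_c0_g1) had 0.01 ± 0.19. Of the list, 1 unigene (11.1%, against 1.18% of all unigenes tested) was higher at the study's thresholds, DN3856_c0_g1 (1.31 ± 0.40). It is named an omega-3 desaturase and was caught by the words cytochrome b5 in its name. The 5 unigenes named as a fused P450 with its reductase all matched 1 Nr protein and had a median log2 ratio of 0.24. They had 0 calls, against 3.01% of all unigenes tested.

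Words in their names picked 17 unigenes of P450 enzymes and related proteins whose names lack the words cytochrome P450. Others, such as a fumitremorgin C monooxygenase match (DN4406_c0_g2), were not in this list. Of the 17, 0 passed the study's thresholds, against 3.01% of all unigenes tested, and the median log2 ratio was near 0 (-0.002). Psi-producing oxygenase A (DN7317_c0_g1), a fatty acid dioxygenase with a P450 domain, had 1363, 928 and 956 FPKM in mature mycelia, against 900.5, 1302 and 1219 FPKM in immature mycelia. It was as abundant as the highest P450 member, but its highest bottles were mature bottle 1 and immature bottle 2, those in which DN7585_c0_g2 was lowest in each group. Lanosterol 14-alpha demethylase (DN7272_c0_g1), a P450 of early ergosterol synthesis, had a log2 ratio of 0.05 ± 0.31. DN2225_c0_g1, also in this list and named sterol 14-demethylase, is given here after its values were seen. It had 30.4, 31.8 and 34.2 FPKM in mature mycelia, against 28.9, 24.8 and 21.5 FPKM in immature mycelia. Its log2 ratio was 0.35 ± 0.14, with an unadjusted p of 0.0415 and an adjusted p of 0.305 (limma). Among 26 unigenes of sterol synthesis, 1 (3.85%, against 1.82% of all unigenes tested) was lower at the study's thresholds. It was a squalene synthase piece of 233 bases (DN6279_c0_g2, -1.08 ± 0.31). In 11 of the 26 (42.3%, against 14.2% of all unigenes below) every mature bottle was below every immature bottle, and the median log2 ratio was -0.34. Every mature bottle lay above in 0 of the 26, against 8.69% of all unigenes, but the list did not hold DN2225_c0_g1. The 26 unigenes matched 20 Nr proteins, so some share a match.

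Heme synthesis supplies the cofactor of P450 enzymes. Of its 10 unigenes, 0 passed the study's thresholds, against 3.01% of all unigenes tested, with a median log2 ratio near 0 (0.005). The first enzyme of the pathway, 5-aminolevulinate synthase (DN7681_c0_g1), had 263, 703 and 582 FPKM in mature mycelia, against 457, 198 and 293 FPKM in immature mycelia. Mature bottle 1 was its lowest mature bottle and its immature bottles stood in the order 1, 3, 2, as in DN7585_c0_g2. This order was also held by 11.6% of all unigenes tested and by 20.4% of those above 100 FPKM, and a link to the P450 levels was not tested. The log2 ratio of DN7681_c0_g1 was 0.67 ± 0.46 (adjusted p of 0.522, limma).

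Enzymes that build or modify secondary metabolites were listed as possible neighbours of P450 enzymes in a pathway. Of 31 unigenes of terpene, polyketide and peptide synthases, 2 were higher, DN5118_c0_g2 (FUB8 match, 1.60 ± 0.22) and DN5118_c0_g1 (afoE match, 1.47 ± 0.25), and 1 was lower, DN425_c0_g1 (FUB8 match, -1.03 ± 0.25), with a median log2 ratio near 0 (-0.004). These 3 calls were 9.68% of the list, against 3.01% of all unigenes tested. The 2 higher unigenes came from 1 assembly component and may not be separate genes. DN5118_c0_g1 had 74.5, 45.7 and 48.9 FPKM in mature mycelia, against 14.8, 23.7 and 20.3 FPKM in immature mycelia, and mature bottle 1 was the highest of its mature bottles, unlike in 5 of the 6 higher P450 unigenes. Words in their names picked 32 methyltransferase unigenes, some of which methylate proteins, a small RNA or phospholipids. Of the 32, 0 passed the study's thresholds, against 3.01% of all unigenes tested (median log2 ratio of -0.10). DN4644_c0_g2 is named here because the study reports it as significantly upregulated in mature mycelia. In the fit used here its log2 ratio was 0.80 ± 0.26 with an unadjusted p of 0.0204 (limma), and every mature bottle lay above every immature bottle. Groups did not overlap in 18.8% of the list, against 22.9% of all unigenes tested, with mature above in 2 and below in 4. Of 9 glutathione transferases, 1 (11.1%, against 1.82% of all unigenes tested) was lower, DN6171_c0_g2 (-1.37 ± 0.33), at a mean level of 2.64 FPKM. The list of 4 glycosyltransferases of small molecules held only unigenes of 1 assembly component, all named sterol 3-beta-glucosyltransferase and matched to 2 Nr proteins. These 4 may not be separate genes, and 0 were called, against 3.01% of all unigenes tested. The median log2 ratios of these 2 lists were -0.02 and 0.06.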

How the data were processed

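RNA from 3 bottles of mature and 3 bottles of immature mycelia was sequenced by the authors with a stranded kit. The authors trimmed reads, assembled them de novo, reduced each subcomponent to its longest isoform, the unigene, and estimated abundance with RSEM; the deposited values are FPKM for 17030 unigenes with their lengths and database matches. Read counts were not used here, so the depth behind a value is not known directly, and low values of short unigenes rest on few fragments. All 6 columns were mapped to bottles by name.

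Groups were compared with limma 3.58.1 in R 4.3.3 (lmFit, eBayes with trend, two-sided, no covariates) on log2(FPKM + 1) for 16496 unigenes, those whose mean FPKM exceeded 1. The added 1 understates the change of low unigenes. Benjamini-Hochberg adjustment covered all of them. The study's own thresholds were applied to the same fit, while the authors' own comparison used a count model.

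The members and gene lists were chosen with earlier results of these data known. Companion lists were words in Swiss-Prot names. Unigenes were named by a rule: the 7 P450 unigenes that the paper names, those past either threshold, the 10 of highest mean FPKM, up to 10 in each direction with the largest log2 ratio among those of at least 5 FPKM without overlap, those that share an Nr protein with them, and the highest and lowest of each name with 5 or more unigenes. Up to 4 of each companion list were eligible, those past the study's thresholds first. As alternatives, the pseudocount, filter, scaling and variance prior were changed, bottle numbers entered as a block, each bottle left out in turn, and a length limit of 500 bases or 1 unigene per Nr protein applied. Tables and plots were made in Python 3.11.15 with matplotlib 3.10.9. Sequences were not used here.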

Additional observations from a re-analysis of the deposited data

How the results depend on the processing

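The 6 higher P450 unigenes became 5 to 10 when 1 bottle was left out, and 4 when each Nr protein was counted once. The 2 lower ones became 1 with a pseudocount of 5, without a filter, with a mean FPKM above 5, with quantile normalization and with 1 unigene per Nr protein, and 1 to 2 when a bottle was left out. No P450 unigene passed an adjusted p of 0.05 except under the limit of 500 bases, where 3 did; the cause was not tested. When a bottle was left out, members with every mature bottle above every immature bottle numbered 22 to 38. They were 18% to 31.1% of members, against 11.4% to 15.3% of all unigenes. Members below numbered 17 to 26 (13.9% to 21.3%, against 17.3% to 25.8% of all unigenes). In both directions, fewer bottles make overlap rarer. With quantile normalization those below numbered 10 (8.2%, against 10.6% of all unigenes). The median log2 ratio ranged from -0.05 to 0.05 with a bottle left out. Among the 41 P450 unigenes named by the rule, the log2 ratios of 5 uncalled ones changed sign with a bottle left out. DN6736_c0_g2 (-0.09 with all bottles) ranged from -0.212 to 0.072 and DN7228_c0_g1 (-0.28) from -0.598 to 0.185. DN7328_c0_g1 (0.18) ranged from -0.0915 to 0.456, DN6756_c0_g1 (0.11) from -0.0638 to 0.297 and DN8395_c0_g1 (0.23) from -0.20 to 0.443. The cause was not tested, and members outside these 41 are not covered by this count.

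Same-numbered bottles did not deviate together (r of -0.09, -0.04 and -0.01), so the numbers do not pair the bottles, and a replicate block left 6 higher and 2 lower members. The table gives no counts, which limits what can be said of members under about 10 FPKM or 500 bases.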

Other observations

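The rule on Swiss-Prot names missed some likely P450 unigenes. Outside the 122 members, 50 tested unigenes carried the 3 terms for heme binding, iron binding and oxidation with paired donors. Of the 50, 29 had no Swiss-Prot name, and 22 were under 500 bases. DN5415_c0_g1 is named a putative lipase, so not all of them need be P450 unigenes. Some, such as DN7604_c0_g1, are also among the 17 unigenes of P450 enzymes named otherwise. The median log2 ratio of the 50 was -0.04, and 4% of them were called in either direction, against 3.01% of all unigenes tested. At the study's thresholds 1 was higher, DN2537_c0_g1, with 1.77, 3.20 and 13.9 FPKM in mature mycelia, against 1.0, 0 and 0 FPKM in immature mycelia. The other, DN7822_c1_g1, was lower, with 22.4, 51.9 and 24.5 FPKM in mature mycelia, against 335, 85.4 and 70.6 FPKM in immature mycelia. Its immature bottle 1 stood far above the rest, as in the P450 member DN9355_c1_g1, and at 217 bases it is a short unigene. These unigenes were chosen after their values were seen.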
